A study of Mus musculus with 6 samples.

Results

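S100a11 and 9 genes of its own protein family and of the annexin family were followed across 6 mouse liver libraries. The S100 genes were S100a11, S100a10, S100a6 and S100a4, and the annexin genes were Anxa1, Anxa2, Anxa3, Anxa4, Anxa5 and Anxa6. They were taken by symbol from a table of 43346 genes, where each of the 10 matched 1 row, and all 10 passed the filter on low counts. The libraries came from total liver RNA of mice on the FFC diet, which the study used as a dietary model of metabolic dysfunction-associated steatohepatitis (MASH), a fatty and inflamed liver. An adeno-associated virus of serotype 8, a vector that enters hepatocytes efficiently, carried a short hairpin RNA (shRNA). In 3 libraries, numbered 2, 3 and 2600, the label names S100a11 as its target and the genotype as knockdown. In the other 3 libraries, numbered 28, 30 and 31, the label names a scrambled shRNA and the genotype control. All 6 libraries therefore share the diet and, per the labels, an shRNA. The labels do not state the strain, age or sex of the mice, the promoter that drives the hairpin or its sequence. Nothing states that each library is a separate animal, so p-values measure the spread between libraries, which may be technical in part.

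S100 proteins are small calcium-binding proteins that work mostly as dimers, and several of them dock on the flexible amino-terminal tails of annexins. Annexins bind phospholipid membranes when calcium rises, so a dimer of S100 that holds a pair of annexins can bridge membranes during vesicle fusion and wound repair of the plasma membrane. S100A11 is best known as a partner of annexins A1, A2 and A6, while S100A10 pairs with annexin A2 in a complex that also binds plasminogen at the cell surface.

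Levels are given in CPM, counts relative to the size of the library, after scaling of its total by TMM, a factor that corrects for differences in composition. The libraries held 53517387 to 78091845 counts, and the TMM factors were 0.822 to 0.932 in the S100a11 shRNA libraries and 1.10 to 1.19 in the scrambled ones. A gene was said to fall or rise where edgeR's quasi-likelihood test gave an adjusted p under 0.05 over all 19352 genes tested. The hepatocyte markers Alb, Ttr, Apoa1, Cps1, Serpina1c and Hnf4a summed to 32447 to 43778 CPM in the S100a11 shRNA libraries and 25820 to 31889 CPM in the scrambled ones, so the labelled tissue was found in every library. Gm26917, a non-coding gene, took 3.99%, 6.44% and 10.8% of counts in S100a11 shRNA libraries 2, 3 and 2600 and 3.16% to 4.42% in the scrambled ones. Protein-coding genes held 90.9%, 87.1% and 81.7% of counts in libraries 2, 3 and 2600 and 89.2% to 91.5% in the scrambled ones, so libraries 3 and 2600 lay outside the scrambled range in both shares, library 2600 the furthest.

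S100a11, the gene the hairpin names, was low in 2 of the 3 libraries that carry its label. It lies on chromosome 3 from 93520488 to 93526287 on the plus strand (mm10, ENSMUSG00000027907). Its level was 16, 3.55 and 3.41 CPM in S100a11 shRNA libraries 2, 3 and 2600 and 15.9, 22.9 and 30.0 CPM in scrambled libraries 28, 30 and 31. Library 2 was level with scrambled library 28: the 95% counting intervals were 15 to 17 and 14.9 to 16.9 CPM, from 1033 and 1068 counts. The groups therefore overlapped, and the log2 fold change of -1.57 ± 0.56 (SE) did not pass (edgeR adjusted p = 0.095, exact two-sided permutation p = 0.2). With that library left out the log2 fold change was -2.75 (edgeR adjusted p = 0.00044). A comparison of 3 against 3 libraries cannot give a permutation p under 0.1.

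The S100a11 count is exposed to near-identical copies. A search of annotated transcripts found 9 processed pseudogenes, intronless copies pasted back into the genome, that matched the S100a11 transcript over at least 150 bases at 80% identity or more, and 7 of them had a row in the table. The closest was Gm12854 on chromosome 4 from 116067268 to 116067564, inside the gene Uqcrh. Its 297 bases are set below against the S100a11 coding sequence (GENCODE M21 transcripts), with the mismatched bases in capitals, since a read from the long shared stretches fits both genes.
S100a11 coding sequence: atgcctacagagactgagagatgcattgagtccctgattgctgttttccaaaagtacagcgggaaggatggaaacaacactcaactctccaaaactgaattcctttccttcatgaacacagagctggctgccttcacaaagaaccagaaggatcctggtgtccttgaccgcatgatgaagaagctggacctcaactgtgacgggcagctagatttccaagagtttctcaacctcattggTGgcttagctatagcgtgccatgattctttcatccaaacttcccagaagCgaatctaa
Gm12854: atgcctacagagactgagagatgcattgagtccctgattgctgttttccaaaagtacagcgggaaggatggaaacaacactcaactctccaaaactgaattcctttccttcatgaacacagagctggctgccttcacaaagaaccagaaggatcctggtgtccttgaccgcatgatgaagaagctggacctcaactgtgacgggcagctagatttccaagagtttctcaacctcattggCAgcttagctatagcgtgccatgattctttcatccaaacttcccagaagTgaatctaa
The mismatches are T240C, G241A and C289T, counted from 1 at the A of the start codon, with the S100a11 base first. The first 239 bases were identical. How the authors' counting treated reads that fit more than 1 gene is not stated in the labels. Gm12854 held 34, 16 and 29 counts in libraries 2, 3 and 2600 and 47, 85 and 61 in scrambled libraries 28, 30 and 31, and it also overlaps Uqcrh. With the 7 pseudogenes added, S100a11 stood at 69.3%, 16.5% and 17.1% of the scrambled mean in libraries 2, 3 and 2600, against 69.8%, 15.5% and 14.9% for S100a11 alone. Scrambled library 28 stood at 69.6% of that mean with the copies, so libraries 2 and 28 were level in both counts, at 16.8 CPM each with the copies added.

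Of the 10 genes, 5 fell in the S100a11 shRNA libraries (S100a4, Anxa1, Anxa2, Anxa3 and Anxa5) and 0 rose. With edgeR 9 were lower and 0 higher at an unadjusted p under 0.05, where 15.9% of all tested genes were lower. DESeq2 called 7 lower and 0 higher, with 11% of all genes lower, and limma voom called 6 lower and 0 higher, with 8.35% lower. Over all tested genes 8.28% fell in the edgeR fit and 5.82% rose, 14.1% in all. In 8 of the 10, every S100a11 shRNA library lay below every scrambled library, as it did in 18.1% of tested genes. The exceptions were S100a11 itself and Anxa6. The median log2 fold change of the 10 genes was -1.11, and that of all tested genes was 0.04. Without the library labelled S100a11 shRNA 2, 9 of the 10 fell where 12% of all genes did, and without library 3 only 2 fell where 2.96% did. Without library 2600, 4 fell where 6.29% did. Without scrambled library 28, 30 or 31, 2 fell in each fit, where 5.18%, 2.54% and 3.47% of all genes did. In whole liver RNA, fewer cells of a type that expresses a gene and less of its RNA per cell cannot be told apart.

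**Figure D1:**
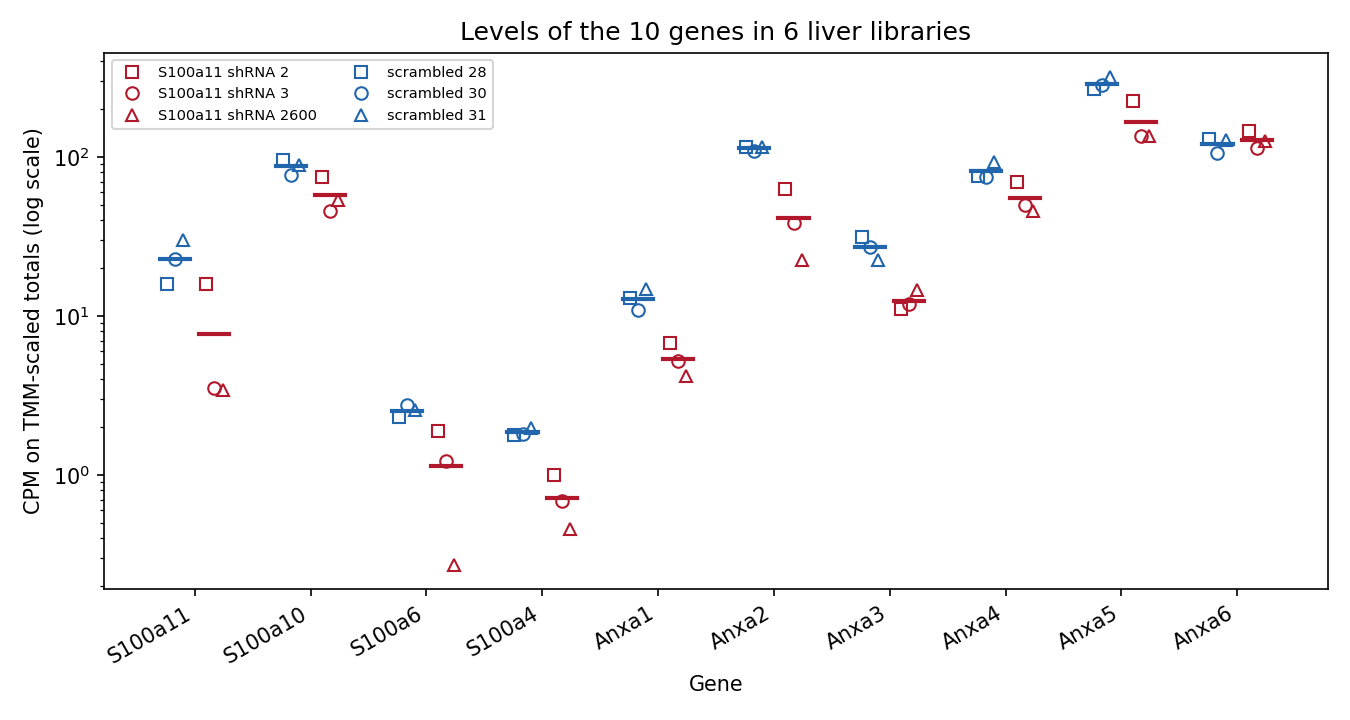
CPM on TMM-scaled totals (log axis) of the 10 genes in each of 6 libraries, with open symbols for libraries and a bar for the mean of 3. The red S100a11 shRNA symbols lie below all blue scrambled symbols in 8 genes, overlap them at S100a11, where library 2 is at 16 CPM, and are mixed with them at Anxa6.

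Among the annexins that pair with S100a11, Anxa1 and Anxa2 fell and Anxa6 did not pass. Anxa1 encodes annexin A1, a glucocorticoid-induced protein that limits inflammation through formyl peptide receptors. It stood at 6.72, 5.18 and 4.21 CPM in libraries 2, 3 and 2600 and at 12.9, 10.9 and 14.8 CPM in scrambled libraries 28, 30 and 31. All S100a11 shRNA libraries were below all scrambled ones, and Anxa1 fell 2.39-fold (log2 fold change -1.26 ± 0.21 (SE), edgeR adjusted p = 0.0085). Anxa2 encodes annexin A2, which links membranes to actin and, with S100a10, binds plasminogen and its activator. Its level was 63.0, 38.7 and 22.4 CPM against 116, 109 and 116 CPM. The scrambled libraries were tightly grouped while the S100a11 shRNA libraries spread over a range of their own, from library 2 at the top to library 2600 at the bottom, with no overlap. Anxa2 fell 2.75-fold (log2 fold change -1.46 ± 0.31 (SE), edgeR adjusted p = 0.018).

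Anxa6 encodes annexin A6, a larger annexin with a doubled core that acts in membrane repair and cholesterol traffic. It was the only 1 of the 10 whose mean was not lower in the S100a11 shRNA libraries. It stood at 145, 113 and 127 CPM against 129, 106 and 128 CPM, so the groups were interleaved (log2 fold change 0.09 ± 0.15 (SE), edgeR adjusted p = 0.75). The sign turned with the scaling: Anxa6 was at -0.27 with library totals alone and -0.0073 with upper-quartile factors.

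The other annexins of the set, Anxa3, Anxa4 and Anxa5, differed in size of change and in which library was lowest. Anxa3, whose product annexin A3 is abundant in neutrophils, stood at 11, 12.0 and 14.5 CPM in libraries 2, 3 and 2600 and at 31.2, 27.2 and 22.6 CPM in scrambled libraries 28, 30 and 31. Library 2 was here the lowest of its group, as in no other of the 10 genes, and the groups did not overlap. Anxa3 fell 2.16-fold (log2 fold change -1.11 ± 0.17 (SE), edgeR adjusted p = 0.0070). Anxa5 encodes annexin A5, which binds exposed phosphatidylserine and forms a protective lattice on torn membranes. It was at 226, 135 and 136 CPM against 267, 283 and 317 CPM. Libraries 3 and 2600 were nearly equal and library 2 lay between them and the scrambled libraries. Anxa5 fell 1.75-fold (log2 fold change -0.80 ± 0.22 (SE), edgeR adjusted p = 0.040), a call that was lost in 5 of 17 alternatives. Anxa4, an annexin of secretory epithelia, stood at 69.9, 49.8 and 46.0 CPM against 76.2, 75.0 and 93.5 CPM. The groups did not overlap, but library 2 came close to scrambled library 30, and the log2 fold change of -0.56 ± 0.18 (SE) did not pass (edgeR adjusted p = 0.075).

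The S100 genes beside S100a11 were also lower in level in the S100a11 shRNA libraries, and S100a4 passed. S100a10 lies 28793 bases downstream of S100a11 on the same strand and encodes p11, the S100 protein that binds annexin A2 without needing calcium. Its level was 74.7, 45.5 and 53.9 CPM in libraries 2, 3 and 2600 and 96.3, 77.4 and 89.3 CPM in scrambled libraries 28, 30 and 31. Library 2 was just under scrambled library 30, without overlap, and the log2 fold change of -0.60 ± 0.19 (SE) did not pass (edgeR adjusted p = 0.073). S100a4 encodes a binder of non-muscle myosin heavy chain that is used as a marker of fibroblasts and of some macrophages. It was at 1.01, 0.687 and 0.455 CPM against 1.78, 1.80 and 1.99 CPM, from 20 to 65 counts and from 120 to 172 counts. All S100a11 shRNA libraries were below the scrambled ones, and S100a4 fell 2.54-fold (log2 fold change -1.34 ± 0.30 (SE), edgeR adjusted p = 0.021).

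S100a6, which encodes calcyclin, a protein of growing and stromal cells, lies 6849 bases from S100a4 and 2906074 bases from S100a11 on chromosome 3. Its level was 1.91, 1.23 and 0.273 CPM against 2.30, 2.76 and 2.55 CPM. Library 2600 stood apart with 12 counts (95% counting interval 0.141 to 0.477 CPM) beside 123 in library 2, and the groups did not overlap. The log2 fold change of -1.11 ± 0.47 (SE) did not pass (edgeR adjusted p = 0.15). Part of S100a4 is also annotated in GENCODE M21 as an exon of Gm42674, so reads from the shared 302 bases fit both genes. Gm42674 has no row in the deposited counts.

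Library 2 had the highest level of the S100a11 shRNA group in 9 of the 10 genes, and library 2600 the lowest in 6. The share of counts in protein-coding genes was highest in library 2 and lowest in library 2600, the order also of S100a11, S100a6, S100a4, Anxa1, Anxa2 and Anxa4, and its part in these levels was not tested. Library 2 thus held S100a11 at the level of a scrambled library while 8 of the other 9 genes were below every scrambled library in it. As shares of the scrambled mean in library 2, S100a4, Anxa1 and Anxa2 stood at 54.2%, 52.2% and 55.3% and Anxa3 at 40.8%, beside 69.8% for S100a11. In library 3 these genes stood at 37.0%, 40.2%, 34.0% and 44.3%, beside 15.5% for S100a11, and in library 2600 at 24.5%, 32.7%, 19.7% and 53.8%, beside 14.9%. S100a11 was therefore further below its scrambled mean than these genes in libraries 3 and 2600 and less so in library 2.

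**Figure D2:**
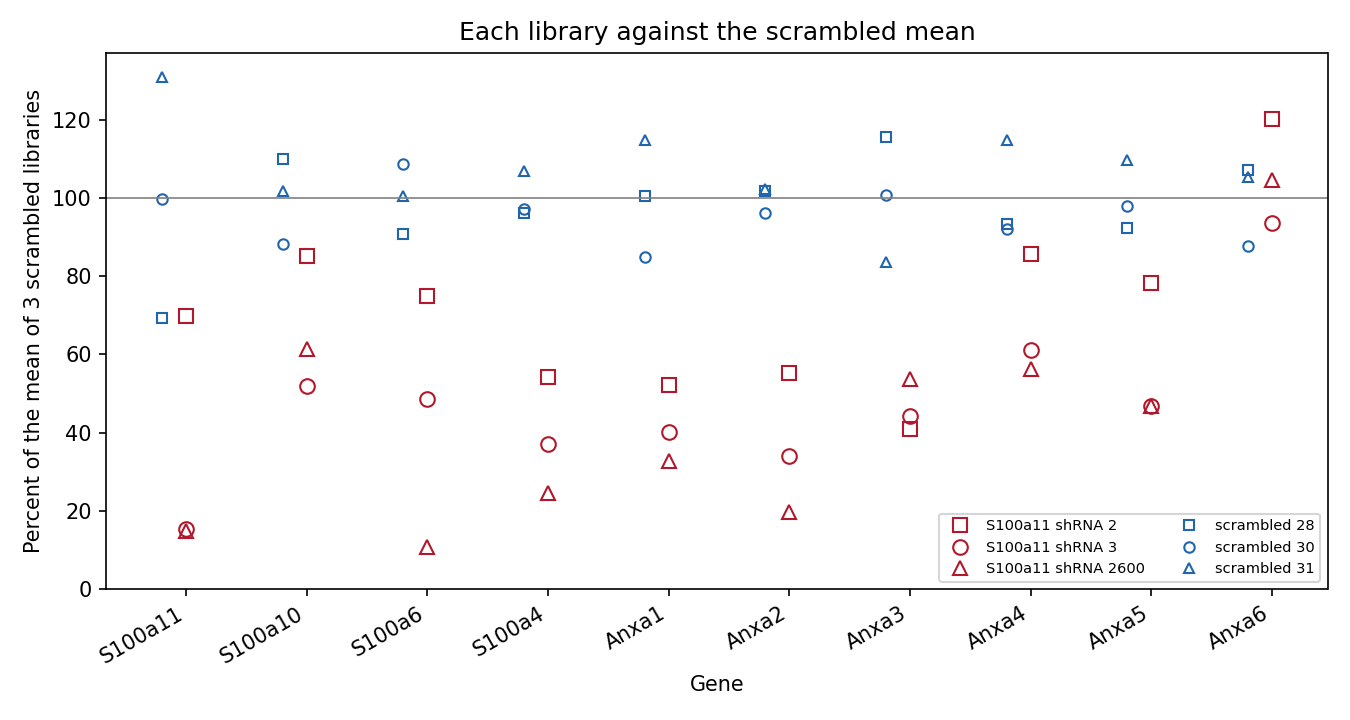
Level of each of the 10 genes in each library as a percent of the mean of the 3 scrambled libraries (line at 100), with large red symbols for S100a11 shRNA and small blue symbols for scrambled libraries. Library 2 (red squares) is the highest red symbol in 9 genes and the lowest at Anxa3, and S100a11 is near 15% in libraries 3 and 2600.

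The ratio of an S100 gene to its annexin within a library does not depend on how the library is scaled. S100a11 counts were 0.110, 0.0313 and 0.0269 of Anxa6 counts in libraries 2, 3 and 2600 and 0.123, 0.216 and 0.235 in scrambled libraries 28, 30 and 31. All 3 S100a11 shRNA libraries were lower, library 2 only narrowly, with a log2 difference of -2.02 (exact two-sided permutation p = 0.1, adjusted p = 0.2 over 4 ratios). S100a10 counts were 1.19, 1.18 and 2.41 times Anxa2 counts against 0.832, 0.707 and 0.767 times. Here all 3 S100a11 shRNA libraries were higher, with a log2 difference of 0.97 (exact permutation p = 0.1, adjusted p = 0.2). The ratios of S100a11 to Anxa1 (log2 difference -0.66, exact permutation p = 0.4, adjusted p = 0.53) and to Anxa2 (-0.35, exact permutation p = 0.6, adjusted p = 0.6) overlapped between the groups. In both, library 2 held the highest ratio of its group, 2.38 to Anxa1 and 0.254 to Anxa2. The smallest permutation p that 3 against 3 libraries can give, 0.1, leaves no ratio able to pass 0.05.

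**Figure D3:**
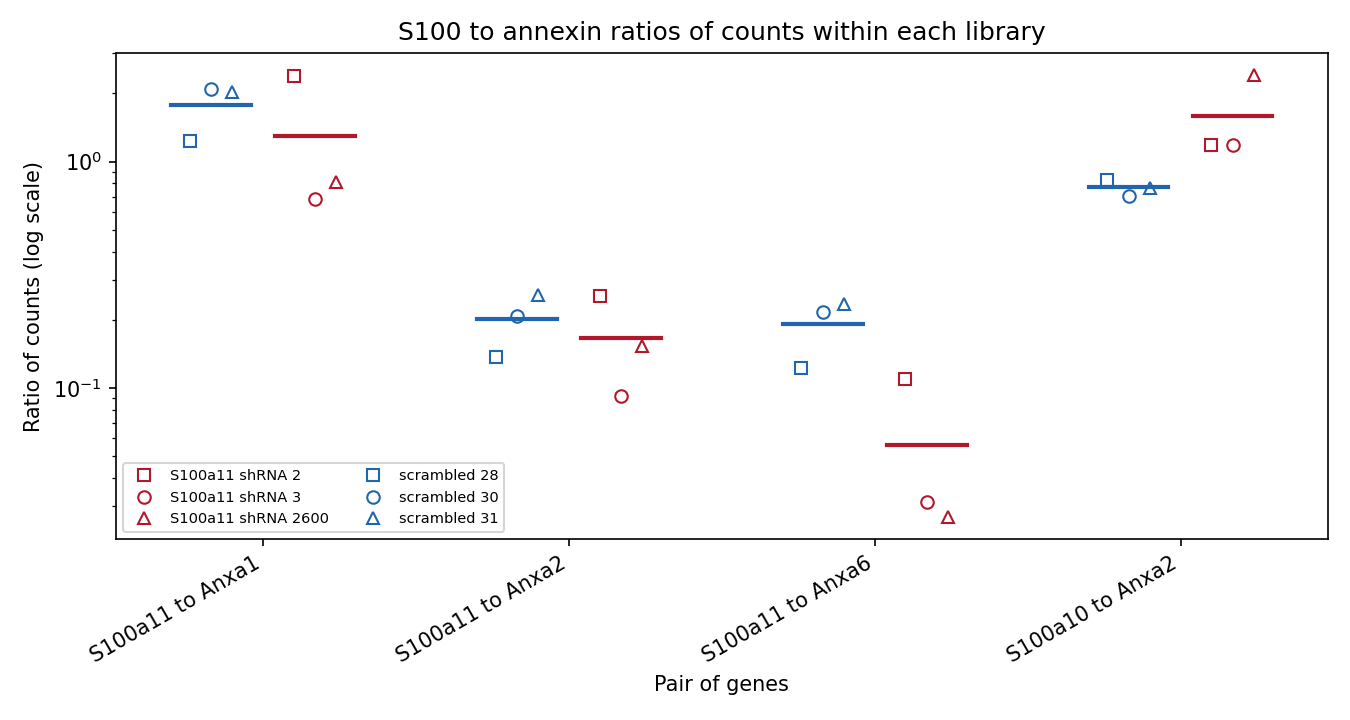
Ratio of counts (log axis) of an S100 gene to an annexin within each library, for 4 pairs, with a bar for the mean of 3 libraries. The groups are separate for S100a11 to Anxa6 and for S100a10 to Anxa2, in opposite directions, and overlap for S100a11 to Anxa1 and to Anxa2.

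Levels were compared between genes only per kilobase of the deposited gene length (RPKM on TMM-scaled totals). These lengths, such as 511 bases for S100a11 and 3731 for Anxa2, were not checked against the transcripts expressed in liver. The order between genes depends on them. In the scrambled libraries Anxa5 was the most abundant at 168 ± 14.8 RPKM (SD, n = 3), followed by S100a10 at 72.3 ± 7.88, S100a11 at 44.9 ± 13.9 and Anxa6 at 41.3 ± 4.44. Next came Anxa2 at 30.5 ± 1.03 RPKM, Anxa4 at 17.9 ± 2.28, Anxa3 at 16.9 ± 2.71, Anxa1 at 4.94 ± 0.734, S100a6 at 3.53 ± 0.319 and S100a4 at 3.16 ± 0.191. Neighbours in this order whose scrambled values overlapped were S100a11 with Anxa6, Anxa4 with Anxa3, and S100a6 with S100a4. In the S100a11 shRNA libraries S100a11 stood at 15 ± 14.1 RPKM, behind Anxa6 at 43.8 ± 5.50, and Anxa2 at 11.1 ± 5.48 RPKM, behind Anxa4 at 12.1 ± 2.82. The order of the means was otherwise the same in both groups. S100a11 spanned 6.67 to 31.3 RPKM, with library 2 at the top, and so overlapped Anxa4 (10.1 to 15.4 RPKM) and Anxa2 (6 to 16.9 RPKM), which also overlapped each other. Other neighbours that overlapped in this group were S100a10 with Anxa6, Anxa2 with Anxa3, Anxa1 with S100a6, and S100a6 with S100a4.

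Across the 6 libraries Anxa5 followed S100a11 most closely among the 10 genes (Pearson r = 0.99 of log2 CPM), ahead of Anxa4 (0.98), S100a4 (0.93), Anxa2 (0.93), S100a10 (0.90), Anxa1 (0.90), S100a6 (0.84), Anxa3 (0.60) and Anxa6 (0.13). These values describe 6 libraries that form 2 groups, the genes in each point share a library and its size, and no test is attached to them. Of 11475 genes that averaged 5 CPM or more, Anxa5 ranked 19 and Anxa4 ranked 57 by this measure, while Anxa2, S100a10 and Anxa1 ranked 390, 524 and 556 and Anxa3 and Anxa6 ranked 2125 and 4259. The 5 highest with a gene symbol were Ablim1 (r = 0.998), an actin-binding protein, Bcl2l11 (0.997), a promoter of apoptosis, Stam2 (0.995), an endosomal sorting protein, Setd8 (0.995), a histone H4 lysine methyltransferase, and Hn1 (0.994). Ablim1, the first of them, stood at 88.2, 49.2 and 49.5 CPM in libraries 2, 3 and 2600 and at 84.0, 102.7 and 114 CPM in scrambled libraries 28, 30 and 31. Library 2 lay within the scrambled range of Ablim1, as it did for S100a11, and Ablim1 did not pass (log2 fold change -0.69 ± 0.24 (SE), edgeR adjusted p = 0.092).

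Sequence upstream of the start was available from RefSeq (GRCm38.p6) for 7 of the 10 genes: S100a11, S100a6, S100a4, Anxa1, Anxa2, Anxa4, with a pair of starts, and Anxa5. The 250 bases before each start were searched on both strands for the letters TGANTCA (AP-1), GGGCGG (SP1), GGAATG (TEAD) and TGACGTCA (CRE). No motif overlapped another in these windows. The windows of S100a11 and Anxa2 are shown because they held the AP-1 letters, with the AP-1 and SP1 matches in capitals, on the plus strand at chr3:93520246-93520495 and chr9:69453433-69453682.
S100a11: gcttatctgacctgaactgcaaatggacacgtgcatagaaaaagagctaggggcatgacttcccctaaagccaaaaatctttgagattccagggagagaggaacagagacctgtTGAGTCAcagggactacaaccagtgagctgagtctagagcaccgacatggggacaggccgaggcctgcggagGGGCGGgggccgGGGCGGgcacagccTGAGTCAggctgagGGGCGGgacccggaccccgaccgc
Anxa2: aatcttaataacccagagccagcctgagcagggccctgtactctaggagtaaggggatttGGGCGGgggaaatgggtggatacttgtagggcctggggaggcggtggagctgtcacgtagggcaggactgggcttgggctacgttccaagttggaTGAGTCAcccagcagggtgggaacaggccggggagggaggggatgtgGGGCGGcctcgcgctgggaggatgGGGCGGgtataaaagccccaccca
AP-1 matches began 136 and 38 bases before the S100a11 start and 95 bases before the Anxa2 start, and 6.75% of 32851 mouse promoter windows of this length held at least 1. SP1 letters occurred 3 times in each of these windows (64, 52 and 24 bases before the S100a11 start and 190, 48 and 24 before that of Anxa2), and 32.7% of windows held them. The window of Anxa1, on the minus strand of chromosome 19 from 20390672 to 20390921, held a TEAD match 236 bases before the start, as 12.6% of windows held. These starts are those of RefSeq and differ from some deposited gene bounds. The Anxa1 window lies inside the deposited gene, which reaches 20390944, as does the Anxa4 window from 86775115 to 86775364. The Anxa2 and S100a11 windows end past the deposited gene starts, at 69453620 and 93520488. The CRE letters, found in 1.55% of windows, were in none of these. A match is a string of letters and not a binding site.

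Other genes of both families were read in the same fit. Of 12 further S100 genes 6 were tested and 0 passed with edgeR, with a median log2 fold change of -0.25. None of them had an unadjusted edgeR p under 0.05, and DESeq2 and limma voom each called 0. S100a8 and S100a9, which encode the calprotectin subunits of neutrophils and monocytes, were scarce. S100a8 stood at 0.387, 0.128 and 0.409 CPM against 0.535, 0.363 and 0.739 CPM (edgeR adjusted p = 0.25), and S100a9 at 0.403, 0.272 and 1.02 CPM against 0.669, 0.625 and 1.19 CPM (edgeR adjusted p = 0.42). Both overlapped between the groups. S100a13, which takes part in unconventional secretion, was 1.16-fold higher with no overlap (edgeR adjusted p = 0.42), and S100a16 was 1.27-fold lower with overlap (edgeR adjusted p = 0.56). S100a16 fell when library 2 was left out (log2 fold change -0.86, edgeR adjusted p = 0.041).

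Of 6 further annexins 5 were tested and 2 fell, where 8.28% of all genes did. Only 1 fell without library 3, scrambled library 30 or scrambled library 31, where 2.96%, 2.54% and 3.47% of all genes did. Anxa9 stood at 3.87, 4.95 and 4.66 CPM in libraries 2, 3 and 2600 and at 10.3, 12.5 and 8.77 CPM in scrambled libraries 28, 30 and 31. The groups did not overlap, and Anxa9 fell 2.34-fold (log2 fold change -1.23 ± 0.20 (SE), edgeR adjusted p = 0.0073). Anxa13, an annexin of epithelial apical membranes, was at 1.49, 1.09 and 2.07 CPM against 2.63, 4.84 and 3.81 CPM and fell 2.46-fold (edgeR adjusted p = 0.028). Anxa11, which tethers RNA granules to lysosomes, was 1.33-fold higher with no overlap and did not pass (edgeR adjusted p = 0.082), and Anxa7 was 1.07-fold higher with overlap (edgeR adjusted p = 0.77).

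**Figure D4:**
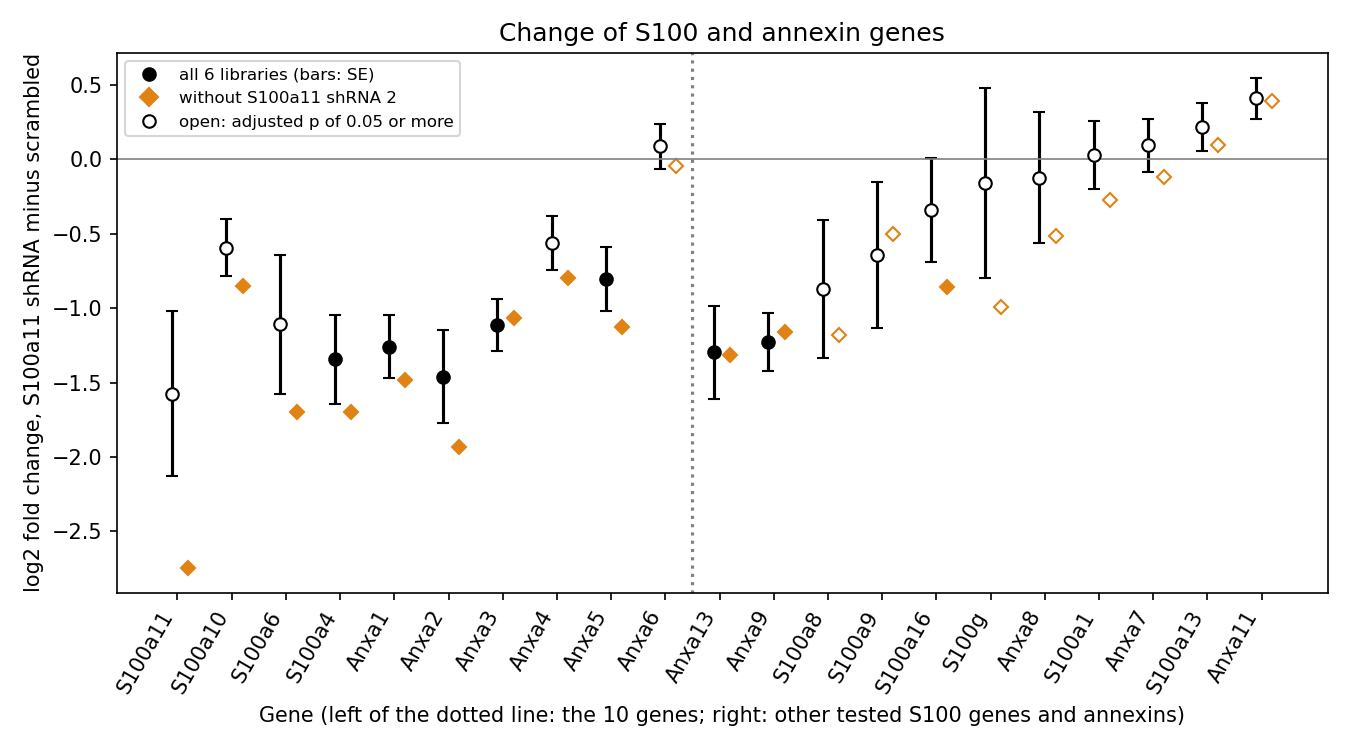
Log2 fold change of S100a11 shRNA against scrambled libraries for the 10 genes (left of the dotted line) and the other tested S100 genes and annexins (right), with bars of 1 SE. Filled symbols passed an adjusted p of 0.05, and orange diamonds show the fit without the library labelled S100a11 shRNA 2, where 9 of the 10 genes fell.

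Receptors and effectors of both families were read from lists chosen by their known role. The receptor list held receptors for S100 proteins and annexin A1 (Ager, Tlr4, Fpr1, Fpr2 and Fpr3) and, beside them, Egfr. Of its 6 genes 5 were tested and 1, Egfr, rose, where 5.82% of all genes did. None of the others passed in the fit of all 6 libraries. Egfr, the receptor of epidermal growth factor and a tyrosine kinase that phosphorylates annexin A1, stood at 539, 1214 and 917 CPM in libraries 2, 3 and 2600 and at 252, 276 and 363 CPM in scrambled libraries 28, 30 and 31. The groups did not overlap, and Egfr rose 3.00-fold (log2 fold change 1.58 ± 0.29 (SE), edgeR adjusted p = 0.011), a call that was lost without scrambled library 30. Tlr4, the endotoxin receptor, was 1.46-fold lower with no overlap (edgeR adjusted p = 0.11). Tlr4 fell when library 2 was left out (log2 fold change -0.77, edgeR adjusted p = 0.016), where 12% of all genes did. Fpr1, a formyl peptide receptor, was at 2.35, 1.76 and 7.30 CPM against 2.39, 2.02 and 2.52 CPM, so its higher mean came from library 2600 (edgeR adjusted p = 0.37). Ager, the receptor for advanced glycation end products, overlapped between the groups (edgeR adjusted p = 0.66).

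Genes of plasminogen activation, which takes place in part on the S100a10 and annexin A2 complex, made up the partners that fell. Of 12 binding partners and plasminogen genes 3 fell and 0 rose with edgeR, where 8.28% of all genes fell and 5.82% rose. Their median log2 fold change was -0.30. The count that fell was 2 without library 3 or scrambled library 30 and 5 without library 2. Of all genes 2.96%, 2.54% and 12% fell in those fits. DESeq2 called 6 lower and 1 higher, where 11% of all genes were lower. At an unadjusted edgeR p under 0.05 the counts were also 6 and 1, where 15.9% of all genes were lower. Plat, the tissue plasminogen activator, stood at 2.52, 1.53 and 0.296 CPM against 7.34, 10.8 and 9.62 CPM and fell 6.18-fold (edgeR adjusted p = 0.013). Plau, the urokinase, was at 4.57, 3.84 and 3.93 CPM against 9.87, 7.99 and 10.4 CPM and fell 2.29-fold (edgeR adjusted p = 0.0062). Its receptor Plaur was at 3.08, 2.03 and 2.00 CPM against 5.99, 5.48 and 5.67 CPM and fell 2.40-fold (edgeR adjusted p = 0.0097). In these genes no S100a11 shRNA library reached a scrambled one. Ahnak, a giant scaffold protein that binds S100a10 with annexin A2, was 1.42-fold lower with no overlap and did not pass (edgeR adjusted p = 0.051). Without library 2 Ahnak fell (log2 fold change -0.61, edgeR adjusted p = 0.019). Plg itself, the liver-made plasminogen precursor named here after its values were seen, was 1.54-fold higher with no overlap and did not pass (edgeR adjusted p = 0.087, DESeq2 adjusted p = 0.0077). Without library 2 Plg rose (log2 fold change 0.70, edgeR adjusted p = 0.033).

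Of 17 membrane repair genes 4 fell and 0 rose with edgeR, where 8.28% of all genes fell and 5.82% rose. Their median log2 fold change was -0.02, near that of all genes. DESeq2 called the same numbers, where 11% of all genes were lower. At an unadjusted edgeR p under 0.05 they were 5 and 0, where 15.9% of all genes were lower. Only 2 fell without library 3, library 2600, scrambled library 30 or scrambled library 31. Of all genes 2.96%, 6.29%, 2.54% and 3.47% fell in those fits. Myof, a ferlin that fuses vesicles with the plasma membrane, stood at 32.1, 24.2 and 26.8 CPM in libraries 2, 3 and 2600 and at 76.5, 75.1 and 81.0 CPM in scrambled libraries 28, 30 and 31. Both groups were tight and far apart, and Myof fell 2.80-fold (edgeR adjusted p = 0.0028). Syt7, the calcium sensor of lysosome exocytosis, fell 2.43-fold (edgeR adjusted p = 0.0100). Ehd2 and Cavin1, which shape and coat caveolae, fell 2.21-fold and 1.82-fold (edgeR adjusted p = 0.025 and 0.030). The other 13 genes of this list, calpains and ESCRT subunits among them, did not pass.

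**Figure D5:**
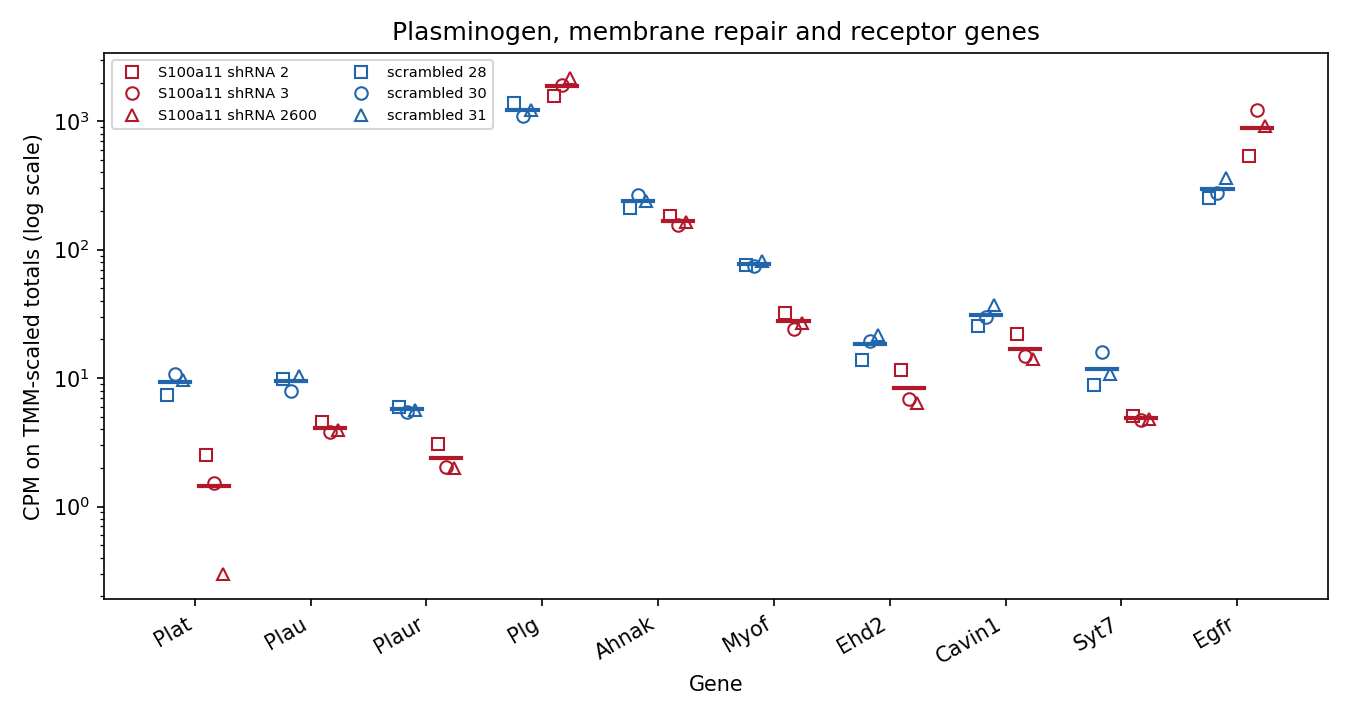
CPM on TMM-scaled totals (log axis) of plasminogen, membrane repair and receptor genes in each library, with a bar for the mean of 3. Plat, Plau, Plaur, Myof, Ehd2, Cavin1 and Syt7 are lower in all 3 S100a11 shRNA libraries and Egfr is higher. Ahnak and Plg are drawn but did not pass in the edgeR fit of all 6 libraries.

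Markers of some liver cell types were lower in the S100a11 shRNA libraries, as 9 of the 10 genes were, and others, hepatocyte markers among them, were not. All 7 genes of the recruited macrophage list fell, as did 7 of 8 cholangiocyte markers and 6 of 9 stellate cell and myofibroblast markers. Of all genes 8.28% fell in this fit. The macrophage list was Trem2, Gpnmb, Itgax, Ccr2, Lyz2, Cd68 and Mmp12, and Lyz2 and Cd68 are not specific to recruited macrophages. The cholangiocyte count was 7 with any library left out. The macrophage count was 4 without library 3, scrambled library 30 or scrambled library 31. The stellate cell count was 1 with any library other than library 2 left out. Summed over each list, the macrophage markers held 80.8 to 179 CPM in the S100a11 shRNA libraries and 317 to 472 CPM in the scrambled ones. The cholangiocyte markers held 104 to 141 CPM against 313 to 370 CPM, and the stellate cell markers 456 to 857 CPM against 1040 to 1501 CPM. No marker of these lists was at 0 in any library, and the sums did not overlap between the groups. The sums of T and NK cell and B cell markers were also lower without overlap. So were those of neutrophil and mesothelium markers, but narrowly (at most 19.8 against at least 19.9 CPM, and 8.34 against 8.43 CPM). Hepatocyte sums were higher without overlap, and Kupffer cell and sinusoidal endothelium sums overlapped. Within the S100a11 shRNA group, stellate cell sums decreased from library 2 to 3 to 2600 (857, 580 and 456 CPM). The point values of S100a11, S100a6, S100a4, Anxa1, Anxa2 and Anxa4 had this order, but so had hepatocyte, T and NK cell and B cell sums. For S100a11, S100a4 and Anxa1, libraries 3 and 2600 were not apart beyond counting error. Cholangiocyte sums (104, 129 and 141 CPM) had the order of Anxa3, as did sinusoidal endothelium sums. Neutrophil sums were nearly level in libraries 2 and 3 (10.7 and 10.8 CPM) and highest in library 2600. The counting intervals of Anxa3 in libraries 2 and 3 overlapped. Macrophage sums (179, 80.8 and 108 CPM) had the order of S100a10, while Anxa5 was nearly level in libraries 3 and 2600 (135 and 136 CPM). Of 6 neutrophil markers 3 were tested and 2 fell, a count of 1 without library 3 or any of the scrambled libraries, with Ly6g, Mpo, Ngp, Camp and Retnlg at 0 in at least 1 library. Of 6 hepatocyte markers 1 rose with edgeR, where 5.82% of all genes did, and 3 with DESeq2, where 1621 of 19352 genes did. All 6 had a positive log2 fold change. Of 6 Kupffer cell markers 1 rose with either tool (2 without library 2), and 3 had a positive and 3 a negative log2 fold change. With library totals alone 2 hepatocyte markers and 4 Kupffer cell markers were negative. Of 6 sinusoidal endothelium markers 1 fell and 2 rose, but none fell with any library other than library 2 left out, and none rose without scrambled library 30. Of 7 T and NK cell markers 1 fell (2 without library 2), of 5 B cell markers 1 fell, and of 4 mesothelium markers none passed with edgeR (1 higher and 1 lower at an unadjusted p under 0.05, 0 with DESeq2, and 1 lower without library 2). The part of these cell types in the levels of the 10 genes was not tested.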

How the data were processed

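Stranded, ribosomal RNA-depleted total RNA libraries were sequenced from 6 liver RNA samples, 3 per group, per the labels' protocols. The authors deposited unnormalized read counts for each Ensembl gene. The build is mm10, per the submitters' processing notes, and not given in the sources used here are aligner, counter and strand setting. A length per gene, which the table also holds, was used as deposited for RPKM.

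Groups came from the labels. Low genes were removed by filterByExpr (minimum count 10, minimum total 15) and the rest compared with the quasi-likelihood test of edgeR 4.0.16 in R 4.3.3, with TMM factors and Benjamini-Hochberg adjustment over 19352 genes at 0.05. The procedure was tested on simulated data. The common biological coefficient of variation was 0.223. Ratios and S100a11 were compared by exact permutation tests, and counting intervals are Poisson intervals at 95%, which cover counting error only. Correlations were taken on log2 CPM (prior count 2). Copies were searched with blastn 2.17.0 in GENCODE M21 transcripts, which also supplied current symbols. The table lists Cavin1 under its older symbol, Ptrf, and Setd8 and Hn1 are older symbols.

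The members, the lists of other S100 genes, annexins, receptors, partners, membrane repair genes and cell type markers, and the tests were chosen with earlier results of these data known. Named genes were the 10 members, the genes of each list past the threshold plus S100a8 and S100a9, then others by smallest p up to 4 a list, and the 5 genes most like S100a11 by Pearson r. Alternatives were RLE and upper-quartile factors, library totals alone, no filter, removal of the 20 most abundant genes, a floor of 1 CPM in 3 libraries, DESeq2 1.42.0, limma 3.58.1 voom with and without quality weights, an adjusted p of 0.1, each library left out in turn, and edgeR's legacy quasi-likelihood, which was added after seeing the data. Ratios were also taken with 1 count added. A gene of the partner list is not reported here.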

Additional observations from a re-analysis of the deposited data

How the results depend on the processing

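Anxa1 and Anxa3 kept their call in all 17 alternatives, S100a4 and Anxa2 lost it in 4 each and Anxa5 in 5, all of them fits with 1 library fewer. S100a10 and Anxa4 gained a call in 6 each and S100a6 in 2. The 5 members called became 8 with library totals alone, 9 with limma voom and quality weights, 8 at an adjusted p of 0.1, and 2 to 9 with a library left out. All of these calls were lower. Of all 19352 genes tested, 3970, 2183 and 2386 were called lower in the first 3 of these settings, against 1602 in the comparison reported. With a library left out, 2.54% to 12% of all genes were called lower. The S100a11 log2 fold change passed with library totals alone (-1.90), limma voom (-1.89), voom with quality weights (-2.24) and, at its main value of -1.57, at an adjusted p of 0.1, and ranged from -2.75 to -1.22 with a library left out. The 2728 genes called in all became 4367 with library totals alone, 4205 at an adjusted p of 0.1, and 724 to 4176 with a library left out. The 10 listed family and partner genes called became 16 with library totals alone and 5 to 16 with a library left out. Library totals alone put the median log2 fold change of all genes at -0.32 and the split at 397 higher and 3970 lower, against 1126 and 1602 in the comparison reported, and upper-quartile factors gave 816 and 1980. Anxa6, which was not called, changed sign with upper-quartile factors (-0.0073), with library totals alone (-0.27), without S100a11 shRNA library 2 (-0.044) and without scrambled library 30 (-0.00040), with a range of -0.044 to 0.17 over libraries left out. With a library left out, the log2 difference of the S100a11 to Anxa2 ratio ranged from -0.72 to 0.015, with a change of sign without library 3, that of S100a11 to Anxa1 from -1.22 to -0.32, that of S100a11 to Anxa6 from -2.66 to -1.65 and that of S100a10 to Anxa2 from 0.62 to 1.14. The causes were not tested. No paired analysis was possible because the groups share no replicate numbers. S100a6 and S100a4 rested on 12 and 20 counts in library 2600.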
